A study of Mus musculus with 6 samples.

Results

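Cxcl1 and Cxcl2 encode the CXC chemokines also known in the mouse as KC and MIP-2. They were followed here in macrophages that had been left unstimulated or exposed to bacterial lipopolysaccharide (LPS). Both were chosen by identifier, as ENSMUST00000031327_at for Cxcl1 and ENSMUST00000075433_at for Cxcl2, and both were present among the 74007 transcript-level rows of the array data, so that they make up 2 of 74007 rows. The deposited table holds identifiers only, and the gene table used here holds 0 Ensembl identifiers, so the naming of these rows could not be checked against the files. Other transcripts of either gene may stand under identifiers that carry no name here.

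Cells came from the femoral bone marrow of female C57BL/6J mice of 8 to 12 weeks on normal chow and were grown into macrophages with 50 ng/mL of recombinant human M-CSF, the growth factor that drives macrophage development, which both groups received. They were replated on day 6. On day 7 one culture of each of the 3 animals received LPS at 10 ng/mL for 4 h, and the other stayed without stimulus. RNA of each culture was hybridised to its own Affymetrix mouse exon array, giving 3 unstimulated and 3 LPS arrays, and each value is an array signal on the log2 scale. The labelled cell type was not checked against macrophage markers or markers of other cells, since those rows could not be named.

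Cxcl1 and Cxcl2 belong to the CXC chemokines that carry the ELR residues ahead of their first cysteines. Both are secreted ligands of the receptor CXCR2 and attract neutrophils. In macrophages LPS binds TLR4 with its partners MD-2 and CD14, and the adaptors MyD88 and TRIF carry the signal to NF-κB, a family of transcription factors that bind κB sites in the promoters of many inflammatory genes. Both chemokine genes are textbook targets of this route, and their mRNAs are known to be short-lived because of AU-rich elements.

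The genes are neighbours on mouse chromosome 5, with 0 annotated genes between them in RefSeq, and Cxcl15, Cxcl3, Pf4 and Ppbp, which also encode CXC chemokines, come before Cxcl1 in the gene order. Their promoters are shown because both genes were higher with LPS and NF-κB is the factor best known to act there. The sequences are RefSeq's, build GRCm38.p6, plus strand, and give the 250 bases before each annotated start, at chr5:90890995-90891244 for Cxcl1 and chr5:90903649-90903898 for Cxcl2. Capitals mark matches, on either strand, to a κB-like motif of 3 G, any 2 bases, 3 T and 2 C.
Cxcl1: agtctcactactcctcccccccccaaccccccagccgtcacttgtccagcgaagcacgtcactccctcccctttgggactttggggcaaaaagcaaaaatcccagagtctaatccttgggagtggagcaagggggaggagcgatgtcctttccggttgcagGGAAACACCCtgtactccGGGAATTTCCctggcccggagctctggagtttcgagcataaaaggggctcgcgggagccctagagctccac
Cxcl2: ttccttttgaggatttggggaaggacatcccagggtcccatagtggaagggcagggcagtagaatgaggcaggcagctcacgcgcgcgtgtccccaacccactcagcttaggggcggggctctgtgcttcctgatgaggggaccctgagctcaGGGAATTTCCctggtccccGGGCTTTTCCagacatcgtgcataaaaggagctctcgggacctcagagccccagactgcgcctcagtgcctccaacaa

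Each promoter held 2 matches to this motif. In Cxcl1 one lay on the opposite strand at bases -89 to -80 from the annotated start, and the other on the gene's strand at -71 to -62. In Cxcl2 both lay on the gene's strand, at -97 to -88 and at -78 to -69. The motif was found in 1.63% of all 32851 promoter windows of 300 bases (250 before and 50 after a start) and in the windows of 512 of 27025 genes. Windows with 2 or more matches belonged to 9 of the 27025 genes, Cxcl1 and Cxcl2 among them, a count made after both promoters had been read.

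The letters of one match, GGGAATTTCC, were the same in both promoters. They were part of a shared run of 14 bases, gggaatttccctgg, that started at -71 in Cxcl1 and at -97 in Cxcl2. Searched on both strands after it had been seen, that run was found in the windows of 2 of the 27025 genes, Cxcl1 and Cxcl2 themselves. A second shared run, gcataaaagg, began at -36 in Cxcl1 and at -59 in Cxcl2 and was found in the windows of 20 genes, both members included. Over the whole 250 bases, 47.2% of the columns of a global alignment were identical. A looser form, 3 G and 2 C with any 5 bases between them, held by 50.8% of all windows, matched in both promoters at the places above or 1 base beside them. An AP-1-like motif, TGANTCA, is held by 7.81% of all windows and had no match in either promoter. The same holds for a C/EBP-like motif, TTGNNCAA, which 6.40% of windows hold, and for the TATA box, read as TATAAA, which 13.6% hold. The second shared run holds cataaa, which differs from TATAAA in its first letter alone. An ISRE-like motif, which repeats 3 T and a C after any 2 bases and is held by 3.44% of windows, had no match either. These were read on both strands, and no match says only that the letters are not in these windows. A match in letters is not a measured binding site, and no binding was measured.

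**Figure D1:**
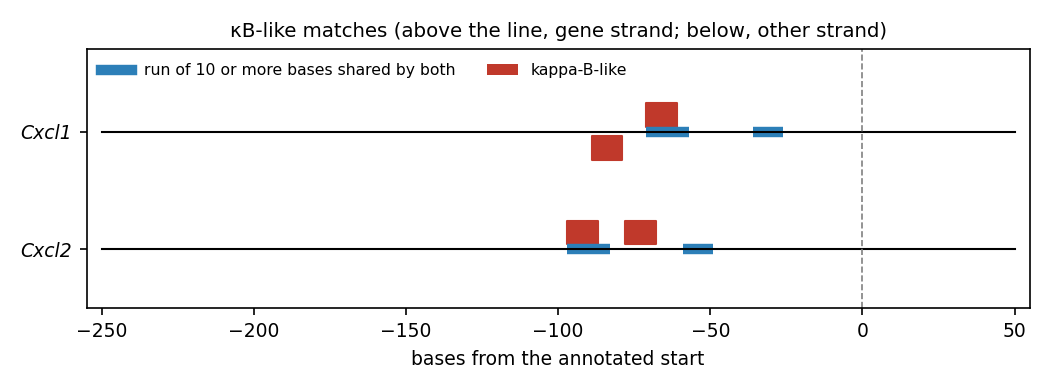
The 300-base windows around the annotated starts of Cxcl1 and Cxcl2, with distance from the start in bases along the x axis. Red boxes are matches to the κB-like motif (above the line on the gene's strand, below it on the other) and blue bars are runs of 10 or more bases shared by both within the 250 bases before the start; the first match of Cxcl2 and the second of Cxcl1 coincide with the shared run of 14 bases.

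The comparison of the 2 groups asks how far each chemokine transcript responds to stimulation of TLR4. Both were called higher with LPS (limma adjusted p under 0.05), as were 8.75% of all rows in the values as deposited. That share depends on scaling and was 13.2% with quantile normalization, 14.2% with cyclic loess, 15.5% with centring on rows above the median level and 32.0% with median centring. On every LPS array both lay above every unstimulated array, which held for 14.9% of all rows. The Cxcl2 row rose 13.3-fold and the Cxcl1 row rose 1.67-fold. These folds belong to the probe sets read here, and other transcripts of either gene could not be looked up.

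Cxcl2, whose row had the larger response, had log2 signals of 7.45, 8.33 and 7.78 on unstimulated arrays 1, 2 and 3. On LPS arrays 1, 2 and 3 its signals were 11.35, 11.75 and 11.67. The groups did not overlap, and the lowest LPS array lay 3.02 log2 units above the highest unstimulated array. The mean was 7.86 ± 0.45 in unstimulated cultures and 11.59 ± 0.21 after LPS (SD, n = 3 each). The log2 difference was 3.74 ± 0.23 (SE), with a 95% interval from 3.19 to 4.28, or 9.15-fold to 19.4-fold (limma adjusted p = 6.84e-05). The SE and interval are limma's, whose moderated variance draws the spread of each row toward that of all rows. In whole-culture RNA, more cells expressing a transcript and more RNA per cell cannot be told apart.

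Cxcl1, which encodes the other ligand, gave log2 signals of 8.39, 8.63 and 8.61 on unstimulated arrays 1, 2 and 3. On the LPS arrays its signals were 9.22, 9.19 and 9.46. Here too the groups did not overlap, with a gap of 0.56 log2 units between the highest unstimulated and the lowest LPS array. The mean was 8.55 ± 0.13 in unstimulated cultures and 9.29 ± 0.15 after LPS (SD, n = 3 each). The log2 difference of 0.74 ± 0.099 (SE) had a 95% interval from 0.50 to 0.98 (limma adjusted p = 0.00170). As folds these bounds are 1.42 and 1.97, so the interval from the moderated SE lay below 2-fold in the values as deposited. That holds for this interval only. The SD of the within-pair differences was 0.16 (n = 3 pairs), and no interval was computed from the spread of this row alone. When limma tested against 2-fold itself (treat), Cxcl2 passed with an adjusted p of 6.72e-04 and Cxcl1 did not, with an adjusted p of 1. A row with an estimate below 2-fold cannot pass treat, so the Cxcl1 outcome adds nothing to its estimate.

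**Figure D2:**
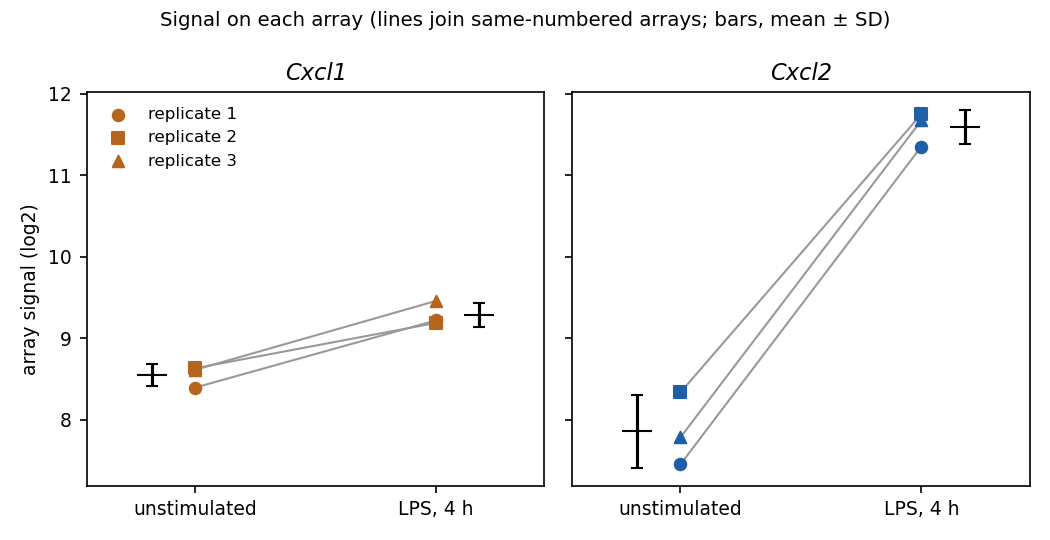
Log2 array signal of Cxcl1 (left) and Cxcl2 (right) on the unstimulated arrays and the arrays of cultures given LPS for 4 h, where each symbol is 1 array, grey lines join same-numbered arrays and black bars show the mean ± SD of 3 arrays. Signals of Cxcl2 climb from between 7.45 and 8.33 to between 11.35 and 11.75, and those of Cxcl1 from between 8.39 and 8.63 to between 9.19 and 9.46.

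Each called member is to be read against how common such calls were. A limma adjusted p under 0.05 was reached by 32.0% of all rows in either direction. A rise of at least 2-fold with that p was found for 3.00% of rows, and the Cxcl1 rise is below this size. Called rises of at least 4-fold were found for 0.893% of rows, and rises of at least 8-fold for 0.355% of rows. Cxcl2 was among these 263 rows, though the 8-fold size was not among the sizes first set. That size lies below the Cxcl2 rise of 13.3-fold, and no size above this rise was counted. Membership in the 8-fold group is therefore no test of Cxcl2 against a size set beforehand.

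By the size of its log2 difference, Cxcl2 ranked 118 of 74007 rows, and 0.159% of rows had a difference at least as large. Cxcl1 ranked 3093, with 4.18% of rows at least as high. Among the 6472 rows called higher, the same order put Cxcl2 at 118 and Cxcl1 at 3074. With median centring 23708 rows were called higher. The ranks among all rows could not change there, because this centring moves the difference of every row by the same amount. The median difference over all rows was -0.022, and the 99th percentile was 1.92, which lies between the differences of both chemokines.

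**Figure D3:**
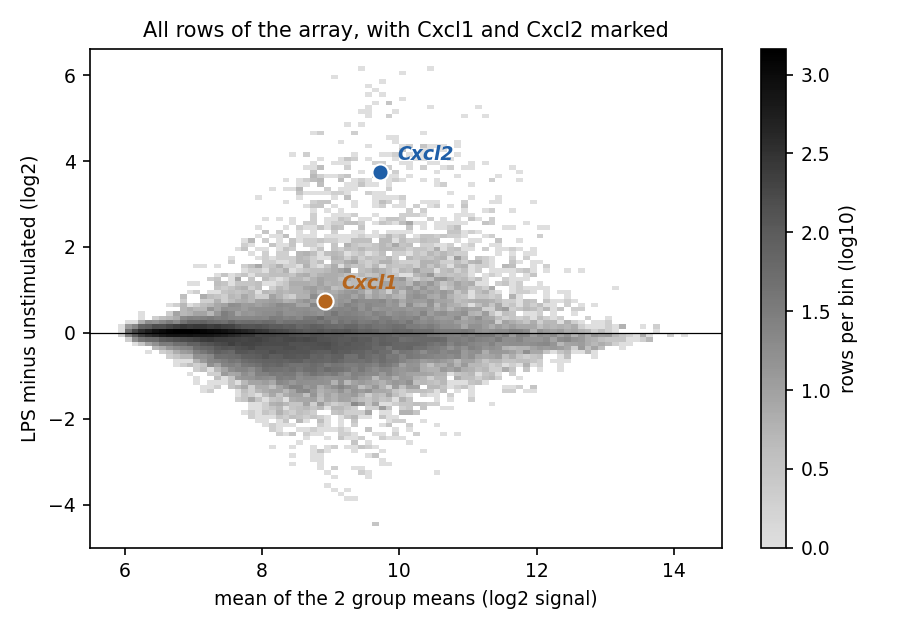
Log2 difference of LPS minus unstimulated (y axis) against the mean of both group means (x axis, log2 signal) for all 74007 rows, counted in bins that are darker where they hold more rows (log10 scale). Cxcl2, with a difference of 3.74, lies above the dense part of the cloud, while Cxcl1, with 0.74, lies in its upper part.

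The members also moved through the range of signals on the arrays. Cxcl2 had a higher unstimulated mean than 48.6% of rows and a higher LPS mean than 97.7% of rows. On single arrays it exceeded between 38.0% and 58.7% of rows without LPS. Cxcl1 had an unstimulated mean above that of 63.5% of rows and an LPS mean above that of 80.4%. These shares place each signal within its array only. They do not compare the abundance of the chemokines, because the signal of a probe set also depends on its probes. Neither row shared all 6 of its values with another row.

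The Cxcl2 row responded more than the Cxcl1 row in all 3 pairs of arrays with the same number. The series text says that each animal gave 1 culture to each group, and the numbers were taken as the animals. For Cxcl2 the log2 difference within pairs 1, 2 and 3 was 3.90, 3.42 and 3.89, or 15.0-fold, 10.7-fold and 14.8-fold. For Cxcl1 it was 0.83, 0.56 and 0.85, or 1.77-fold, 1.47-fold and 1.80-fold. Pair 2 thus gave the smallest response of both chemokines, and unstimulated array 2 gave the highest unstimulated signal of both. Whether the members vary together among the animals was not tested.

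The response of Cxcl2 exceeded that of Cxcl1 by 3.08, 2.86 and 3.05 log2 units in pairs 1, 2 and 3. The mean excess was 2.99 ± 0.12 (SD, n = 3 pairs), a fold 7.97 times as large. With the arrays of the groups exchanged, the exact two-sided permutation test of the Cxcl2 minus Cxcl1 value had p = 0.1, the lowest value possible with 3 arrays a group, so it could not reach 0.05. With the pairs kept, the exact sign-flip test gave p = 0.25, likewise its smallest. Whether the probe sets differ in how far their signal follows a change in RNA was not tested.

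The arrays of a group were farthest apart for Cxcl2 without stimulus. Without LPS the Cxcl2 signal ranged over 0.88 log2 units, and its SD was larger than that of 99.5% of rows, against a median row SD of 0.078. With LPS its range was 0.40, and its SD exceeded that of 86.8% of rows. For Cxcl1 the ranges were 0.24 without and 0.27 with LPS, with SDs above those of 74.7% and 72.0% of rows. The lowest Cxcl2 signal with LPS was on array 1, as was the lowest without LPS. The Cxcl1 signal was lowest on array 1 without LPS and on array 2 with LPS.

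The row with the pattern most like each member was found by the Euclidean distance between the 6 log2 values, each row centred on its own mean. For Cxcl2 it was ENSMUST00000079824_at, at a distance of 0.27 over the 6 arrays. Its unstimulated signal was 8.35 ± 0.42 and its signal after LPS 12.03 ± 0.15 (SD, n = 3 each), for a log2 difference of 3.67. That row was lowest on array 1 and highest on array 2 in both groups, as Cxcl2 was, a likeness for which the row was picked. For Cxcl1 it was ENSMUST00000114409_at, at a distance of 0.087, with 7.89 ± 0.13 unstimulated and 8.59 ± 0.11 after LPS (SD, n = 3 each), for a log2 difference of 0.71. Within a distance of 0.5 lay 10 rows for Cxcl2 and 1674 for Cxcl1. Neither identifier carries a gene name in the tables used here.

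The differences were computed under each processing setting tried. Across 18 alternatives the log2 difference lay between 3.53 and 4.15 for Cxcl2 and between 0.66 and 0.96 for Cxcl1. The block, the eBayes settings, treat and the choices of rows kept cannot change this difference and returned the values as deposited. The highest Cxcl2 value came from treating each array's 1st percentile as background, subtracted before an offset of 16, which raised the Cxcl1 difference to 0.85. The highest Cxcl1 value came from cyclic loess normalization and was still below 2-fold. The median signal of the LPS arrays minus that of the unstimulated arrays was -0.15, and with each array centred on its median the differences were 0.89 for Cxcl1 and 3.89 for Cxcl2. Both chemokines stayed higher with LPS under each scaling tried. The excess of the Cxcl2 response lay between 2.82 and 3.31 log2 units over its 13 alternatives. The block, median centring and centring on rows above the median level could not change that excess. No detection level was among the files, so for any transcript that was absent without LPS the fold is a lower bound.

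**Figure D4:**
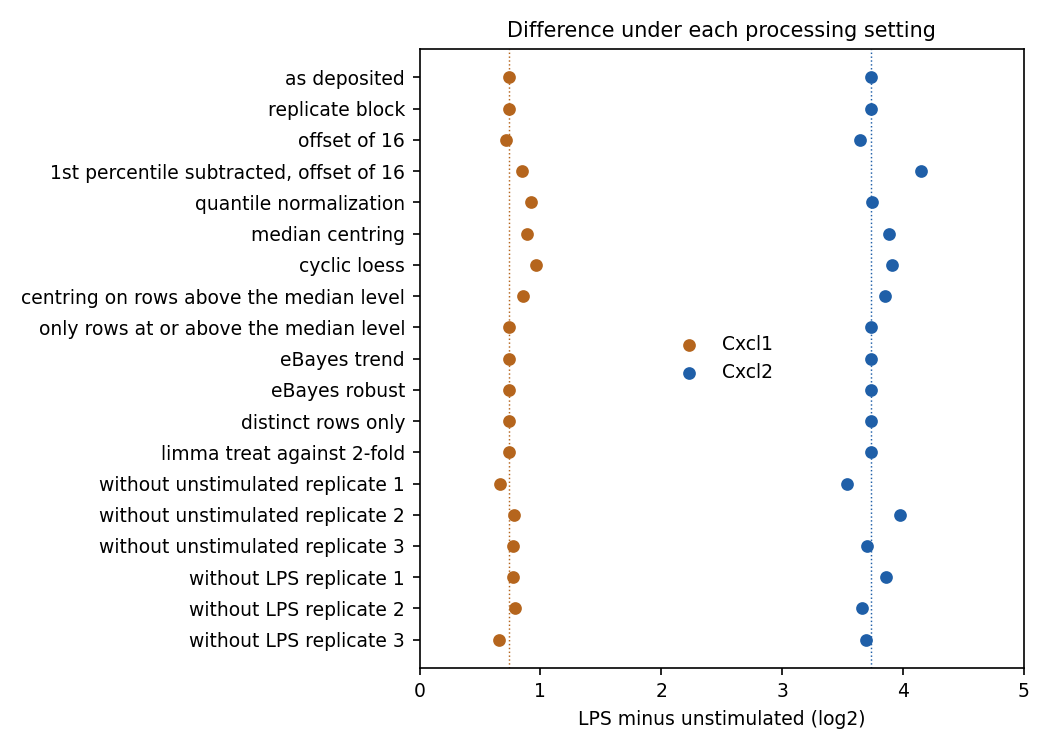
Log2 difference of LPS minus unstimulated (x axis) for Cxcl1 (brown) and Cxcl2 (blue) in the values as deposited and under each of 18 alternatives (y axis), where dotted lines mark the values as deposited. All Cxcl2 points lie between 3.53 and 4.15 and all Cxcl1 points between 0.66 and 0.96. Alternatives that cannot change the difference lie on the dotted lines.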

How the data were processed

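The authors deposited log2 values for transcript-level probe sets, as the series text says. PLIER and Affymetrix Power Tools were used, per the submitters' processing notes. The sources used here do not give how probe sets were defined, the build, any offset or any normalization across arrays. Values ran from 5.84 to 14.4 over all arrays.

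Arrays were grouped by title. limma 3.58.1 in R 4.3.3 (lmFit, eBayes) was run on all 74007 rows as deposited, without filter, offset or block, two-sided, with Benjamini-Hochberg adjustment over all rows and a threshold of 0.05. Differences are LPS minus unstimulated. The script was tested on simulated data. The members, lists and rules were chosen with earlier results of these data known. Beside both members, the 1 row nearest in pattern to each was named. Lists of CXC chemokines, receptors, TLR4 signalling, mRNA decay and cell type markers were not looked up for want of gene names.

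Each animal gave 1 culture per group, per the series text. Across rows, the distances of arrays 1, 2 and 3 from their group means correlated between groups at 0.50, 0.30 and 0.12. LPS array 3 was closer to unstimulated array 2, at 0.21. The 3 same-number values each exceeded 0.1, but so did that one, so they do not settle which arrays share an animal. The number was taken as the pair without further evidence and used as a block in an alternative. The sources used here give no slide or scan date, so no batch was tested. The number of arrays limits the precision. Promoters came from RefSeq (GRCm38.p6), matched by symbol for 2 of 2 members, and were aligned with Biopython 1.88.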

Additional observations from a re-analysis of the deposited data

How the results depend on the processing

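Alternatives changed the block, offset, background, normalization, filter, eBayes settings, rows kept, null hypothesis and arrays. Cxcl2 kept its call and direction in all 18, with limma adjusted p from 1.23e-06 to 8.92e-04. Cxcl1 kept its direction in all 18 and its call in 17. The exception was limma's treat against 2-fold (difference 0.74, adjusted p = 1), which an estimate below 2-fold cannot pass. With the replicate block the differences, which it could not change, were 0.74 and 3.74 (limma adjusted p = 0.00241 and 1.72e-04). The block changed neither member's call, and 26284 rows were called, 7210 higher and 19074 lower. Over the 15 alternatives that gave a rank, Cxcl2 stood between 95 and 152 and Cxcl1 between 2670 and 3695. The block and both centrings could not change a rank among all rows. Leaving out 1 array at a time gave differences from 0.66 to 0.79 for Cxcl1 and from 3.53 to 3.98 for Cxcl2, and 18380 to 22009 rows called. Rows called went from 23667 to 35595 with median centring and 1587 with treat. Rows called higher went from 6472 to 9768 with quantile normalization, 23708 with median centring, 10499 with cyclic loess, 11466 with centring on rows above the median level and 1072 with treat. Rows called lower numbered 17195 as deposited, 11053 after cyclic loess and 515 under treat. Treat tests against 2-fold itself, and for the scalings the cause was not tested. Median centring raised each difference by 0.15, while the median difference over all rows was -0.022 as deposited. Of all calls, 27.3% were higher as deposited, 43.4% with quantile normalization, 66.6% with median centring, 48.7% with cyclic loess and 48.1% with centring on rows above the median level.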
